A study of Mus musculus with 2 samples.

Results

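Cells of mouse somitic gastruloids that carried Sox2 and posterior Hox transcripts but no T were examined with and without degradation of the Zeb2 protein. They were chosen by their counts of unique molecular identifiers (UMIs, the count of distinct captured transcripts): at least 2 UMIs of Sox2, none of T, at least 1 UMI of 3 or more of Hoxa9, Hoxb9, Hoxc6, Hoxc8 and Hoxc9, and at least 1 UMI of no more than 2 of Pax6, Sox1, Msx3, Rfx4, Pou3f2 and Pax3. The rule took 1801 of 13826 cells that had at least 1000 genes detected and at most 10% mitochondrial UMIs. These were 1085 of 6646 untreated cells and 716 of 7180 dTAG-13 cells. They are called Sox2+T-Hox+ cells here. The working name for them, posterior Hox9 positive pre-neural cells, fitted the untreated library better than the dTAG-13 library. In the dTAG-13 library, 49.9% of them also carried at least 2 of 6 genes of non-neural ectoderm, against 10.6% in the untreated library.

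In the mouse embryo, the spinal cord and the somites are laid down from bipotent progenitors at the tail end, which carry both Sox2 and T. Cells that leave this pool toward the neural tube lose T, keep Sox2 and Nkx1-2 for a while as a pre-neural epithelium, and later switch on Pax6 and Irx3, helped by retinoic acid from the somites and opposed by FGF from the tail. The Hox clusters are opened in order from group 1 to group 13, so that group 9 genes mark trunk and tail positions. Zeb2 is a zinc finger and homeodomain repressor that binds E-box sequences, silences epithelial genes and is needed for normal neural plate and neural crest development.

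Gastruloids are balls of cultured embryonic stem cells that elongate and lay down a body axis, here with somites. Both libraries came from the E14_triple reporter line with a HA-FKBP12F36V degron on the endogenous Zeb2 protein, which the small molecule dTAG-13 sends to degradation. Both pools were seeded with 300 cells per aggregate, given 3 µM CHIR99021 (an activator of WNT signalling) at 48 h and placed in 10% Matrigel at 96 h, and 1 pool was given 100 nM dTAG-13 at 72 and 96 h. The control is labelled untreated, although the series text names DMSO. About 32 gastruloids were pooled and 10000 live sorted cells were loaded per 10x Genomics 3' library. No source used here states the hour of harvest or whether the line is 1 clone. The tag is in both groups, and no untagged line treated with dTAG-13 was analysed here.

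Each group is 1 library, so nothing below has a replicate and no difference between the libraries was tested. All intervals are 95% exact intervals and cover counting error only. The libraries held 158002807 and 176677276 UMIs. The Sox2+T-Hox+ cells had a median of 21044 UMIs in the untreated and 22664 in the dTAG-13 library, close to the 20450 and 20514.5 of all other cells. Levels are UMIs summed over the cells of a library, scaled to 1000000 UMIs (CPM). The ratio given for a gene is dTAG-13 to untreated on the log2 scale, after adding 1 CPM to each, and a gene is called higher or lower at 1.5-fold or more. The 2 libraries shared 14 barcodes, and none was a Sox2+T-Hox+ cell in both.

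Sox2+T-Hox+ cells made up 16.3% of untreated cells (15.4 to 17.2%, Clopper-Pearson) and 9.97% of dTAG-13 cells (9.29 to 10.7%). The sign of the difference depended on the Hox condition of the rule. Among Sox2-positive, T-negative cells with few neural genes, at least 3 of the 5 Hox genes were detected in 58.0% of 1870 untreated cells (55.8 to 60.3%) and in 29.4% of 2436 dTAG-13 cells (27.6 to 31.3%). Without the Hox condition such cells were the larger share with dTAG-13, at 28.1% of untreated and 33.9% of dTAG-13 cells. Leaving it out also added cells with high Pou5f1, a pluripotency factor. The 467 untreated and 1169 dTAG-13 cells with none of the 5 Hox genes detected had Pou5f1 at 430 and 343 CPM. In Sox2+T-Hox+ cells it was at 26.6 and 52.6 CPM, so the 2 shares do not compare like cells. Counts of cells in 1 pool say nothing of cell numbers per gastruloid.

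The cells also differed in makeup between the libraries. None of the 6 neural genes of the rule was detected in 50.2% of the untreated and 64.4% of the dTAG-13 cells. All 5 Hox genes of the rule were detected in 48.0% and 37.4%. The rule itself limits both counts, so these shares describe the chosen cells only. At least 1 UMI of Irx3, a homeobox gene of the neural tube that the rule did not use, was found in 60.6% and 44.0%, while Nkx1-2, a homeobox gene of the pre-neural tube, was found in 60.5% and 59.9%. The 6 genes of non-neural ectoderm (Sfn, Dlx5, Dlx6, Dlx3, Upk1a and Tfap2a) were picked after their values were seen, so their difference is a description: 75.9% of untreated cells carried none of them against 29.5% of dTAG-13 cells.

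**Figure D1:**
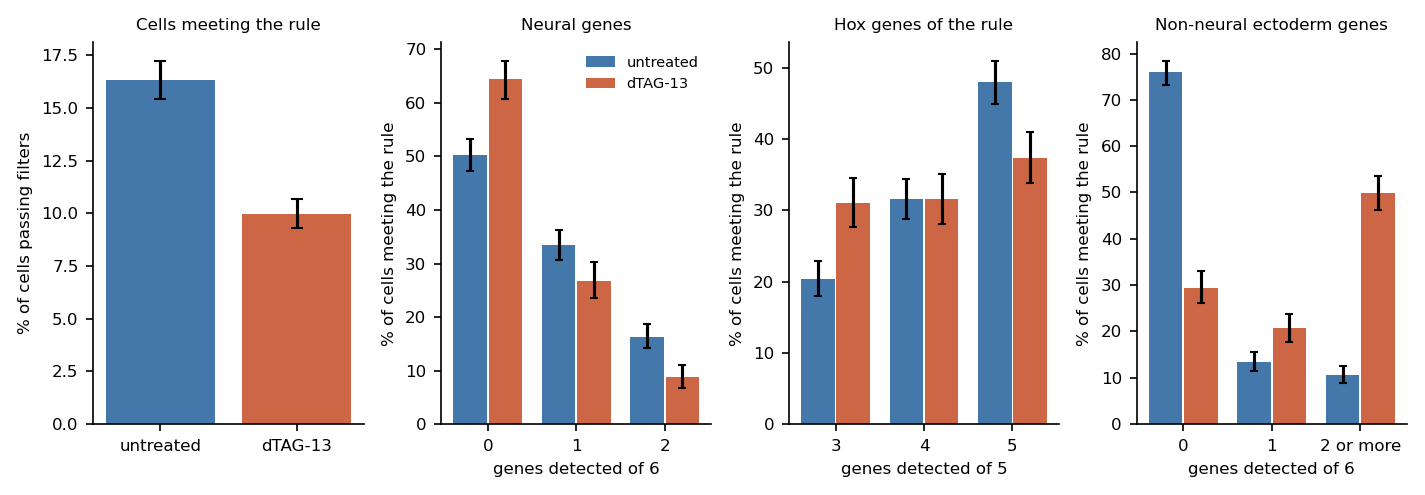
Share of cells meeting the rule and their makeup in the untreated (blue) and dTAG-13 (orange) libraries, in percent of cells, with 95% exact intervals as bars. The 9.97% of dTAG-13 cells that met the rule held fewer neural and Hox genes per cell, both counts that the rule itself limits. Of these cells 49.9% had 2 or more non-neural ectoderm genes, against 10.6% of the untreated cells.

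After thinning each cell to 10000 UMIs, which removes differences in depth, 2 or more of these 6 genes remained in 5.52% of untreated and 31.2% of dTAG-13 Sox2+T-Hox+ cells. Somite cells, which should lack the genes and show the level of free RNA, gave 0% of 511 untreated cells (an interval up to 0.719%) and 0.327% of 306 dTAG-13 cells. The difference was not restricted to Sox2+T-Hox+ cells: T-positive neighbours (at least 2 UMIs of Sox2 and of T) went from 6.73% to 23.8%, and all other cells from 3.47% to 17.5%.

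The markers of the working name that the rule left free were Nkx1-2, Irx3 and Hes5, a Notch target that holds neural progenitors undifferentiated. Nkx1-2 stood at 50.2 CPM in untreated and 41.6 CPM in dTAG-13 Sox2+T-Hox+ cells, against 25.3 and 18.6 CPM in all other cells. Irx3 stood at 62.1 and 29.6 CPM, against 26.3 and 19.9 CPM. Hes5 stood at 48.8 and 17.5 CPM, against 45.9 and 12.3 CPM. Nkx1-2 was thus about as far above the other cells in both libraries, by 0.96 and 1.12 on the log2 scale. The lead of Irx3 was smaller with dTAG-13, at 1.21 and 0.55, and Hes5 set the cells little apart, at 0.09 and 0.47.

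Few other genes marked the cells out, and since a gene rule chose them this is a description. Against all other cells, 11 of 18204 measured genes outside the rule were at least 2-fold higher in both libraries (0.0604%) and 211 were at least 2-fold lower (1.16%). The highest was Sema3a, a secreted axon guidance cue, at 40.3 and 37.3 CPM against 15.99 and 9.43 CPM in other cells. Its relative Sema3e was at 45.6 and 54.0 CPM against 19.4 and 26.9 CPM, just under 2-fold with dTAG-13 once 1 CPM was added. Hoxa7, a trunk Hox gene outside the rule, had 269 and 282 CPM against 132 and 87.9 CPM. Ncam1, a neural cell adhesion molecule, had 218 and 173 CPM against 104 and 66.0 CPM, and Gbx2, a homeobox gene of the posterior neural plate, had 61.1 and 63.3 CPM against 29.9 and 29.8 CPM. The other 10 genes of the leading 15 were Psd3, Tanc2, Plagl1, Hoxc4, Nin, Nkx1-2, Epha5, Hoxb5os, Igfbpl1 and Celsr1. The 15 were ranked by the smaller of the 2 libraries' ratios, and some, such as Nkx1-2, were under 2-fold in 1 library.

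The genes lowest against all other cells were those of pluripotent cells. Of 16 pluripotent and germ cell genes measured, 13 were at least 2-fold lower in both libraries, led by Dppa3, Dppa5a, Klf2 and Zfp42. Dppa5a stood at 72.9 and 132 CPM against 496 and 554 CPM in other cells. Somite genes were lower too, with 5 of 9 at least 2-fold below in both libraries, and so were 7 of 10 endoderm genes. Msgn1, a defining gene of presomitic mesoderm, was at 0 UMIs in the Sox2+T-Hox+ cells of both libraries, and Tbx6 was at 2.16 and 1.10 CPM.

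At the edges of the rule some genes differed little between cells just inside and just outside, and others stepped. In the untreated library, Nkx1-2 was at 50.02 CPM in the 214 cells with 1 UMI of Sox2, just outside, and at 57.6 CPM in the 182 cells with 2. With 2 of the 5 Hox genes Pou5f1, a pluripotency factor, was at 107 CPM, and with 3 at 47.0 CPM. In the dTAG-13 library it was at 87.3 and 63.6 CPM. Cells with 1 UMI of T had Irx3 at 45.1 CPM in the untreated library, against 62.1 CPM with none. Tbx6, a presomitic mesoderm factor, was at 15.35 CPM with 1 UMI of Sox2 and 2.88 CPM with 2, and at 6.92 CPM with 1 UMI of T and 2.16 CPM with none.

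Against the T-positive neighbours, 3 of 15280 genes were at least 2-fold higher in both libraries (0.0196%) and 82 were lower (0.537%). Fgf8, the tail FGF ligand, was at 91.2 and 87.4 CPM in Sox2+T-Hox+ cells and at 371 and 316 CPM in the T-positive cells. Rspo3, a secreted enhancer of WNT signalling, was at 40.5 and 45.6 CPM against 348 and 294 CPM. Ptprz1, a receptor phosphatase of neural progenitors, went the other way, at 56.3 and 48.8 CPM against 22.4 and 20.6 CPM. Sprr2a3, AY761185 and Defa30 were lowest of all, but each has near-identical gene copies that can share reads, which makes their counts uncertain.

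Against neural neighbours, which carried 3 or more of the 6 neural genes, 58 of 14337 genes were at least 2-fold higher in both libraries (0.405%) and 93 were lower (0.649%). Nkx1-2 was at 19.2 and 14.1 CPM in the neural cells, well under its level in Sox2+T-Hox+ cells, and Fgf8 was at 27.4 and 26.9 CPM. Fgf17, another tail FGF ligand, was at 63.0 and 96.9 CPM in Sox2+T-Hox+ cells and at 18.3 and 33.6 CPM in the neural cells. Fabp7, a fatty acid binding protein of radial glia, was at 7.20 and 3.76 CPM against 78.6 and 108 CPM, and Crabp1, a retinoic acid binding protein, at 150 and 92.7 CPM against 781 and 1055 CPM. Against Hox-low cells, which met the rule except that at most 2 of the 5 Hox genes were detected, 124 of 16100 genes were 2-fold higher in both libraries (0.77%) and 642 were lower (3.99%). Cdx2, a caudal factor, was at 206 and 164 CPM against 43.7 and 45.8 CPM, and Dppa5a at 72.9 and 132 CPM against 2791 and 1563 CPM. In both libraries, the Sox2+T-Hox+ cells thus lay between the T-positive and the neural cells in Fgf8 and above both in Nkx1-2.

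**Figure D2:**
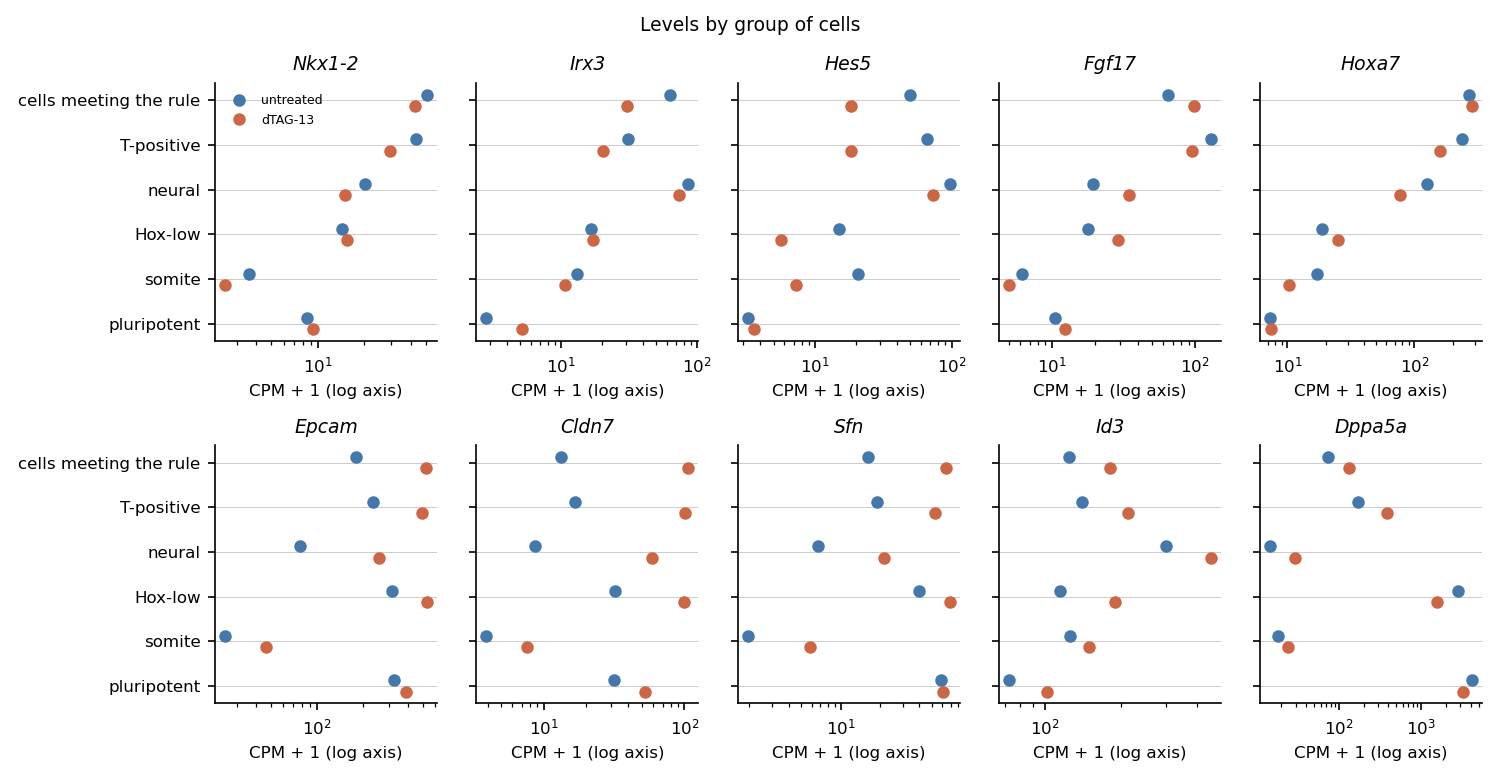
Level of 10 genes (CPM + 1, log axis) in 6 groups of cells in the untreated (blue) and dTAG-13 (orange) libraries, 1 point per library. Nkx1-2 is highest in the cells meeting the rule in both libraries, Irx3 and Hes5 are lower there with dTAG-13, and Epcam and Cldn7 are higher with dTAG-13 in every group shown.

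Between the libraries, 625 of 13966 measured genes were higher with dTAG-13 in Sox2+T-Hox+ cells (4.48%) and 193 were lower (1.38%), while the median of all genes was 0.02. Zeb2 itself was at 86.4 CPM in the untreated and 115 CPM in the dTAG-13 cells, a log2 ratio of 0.41 (interval 0.33 to 0.50). The degron acts on the protein, so its RNA does not check the degradation. Zeb1, its close paralogue, was at 28.5 and 16.7 CPM (ratio -0.74), but at 31.6 and 34.3 CPM (0.11) in the cells with none of the 6 non-neural ectoderm genes.

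Epithelial genes were higher with dTAG-13 almost throughout. On the list of epithelial junction and keratin genes, 29 of the 33 measured were higher and none lower, against 4.48% of all genes higher, and their median ratio was 1.52. Together they held 620 CPM in the untreated and 1902 CPM in the dTAG-13 cells. Rab25, a small GTPase of apical recycling, was at 4.96 and 50.5 CPM (ratio 3.11, 3.08 to 3.62). Cldn7, a tight junction claudin, was at 12.4 and 106 CPM (3.00, 2.92 to 3.27). Krt8, a keratin of simple epithelia, was at 49.1 and 231 CPM (2.21, 2.14 to 2.32), and its partner Krt18 was at 44.5 and 178 CPM. Each was called higher, with intervals far from 0.

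Epcam, an epithelial adhesion molecule, was at 181 and 519 CPM, and Cdh1, the cadherin of epithelial adherens junctions, at 14.6 and 46.3 CPM. Crb3, an apical polarity protein, was at 5.08 and 25.4 CPM, and Ap1m2, the adaptor subunit of epithelial basolateral sorting, at 0.530 and 11.5 CPM. The splicing regulator Esrp1 was at 15.7 and 52.9 CPM and the epithelial transcription factor Grhl2 at 3.296 and 15.1 CPM. The 4 measured genes not called were Lsr, F11r, Spint2 and Marveld3, with ratios from 0.20 to 0.58. Cdh2, the cadherin of neural plate and mesenchyme, was at 93.6 and 64.8 CPM (-0.52), and Vim, an intermediate filament of progenitors and mesenchyme, at 113 and 65.8 CPM (-0.77). Of 16 mesenchymal genes measured, Vim was the only one called, as lower. Where none of the 6 non-neural ectoderm genes was detected, Cdh2 was at 101 and 98.1 CPM (-0.05), and Vim was not called, at 116 and 80.4 CPM (-0.52).

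The same was seen per cell. At 10000 UMIs per cell, 5 or more of the 34 epithelial genes were detected in 31.7% of untreated Sox2+T-Hox+ cells and 77.6% of dTAG-13 ones, with a median of 3 and 9 genes. Somite cells gave 1.76% and 5.23%. Epithelial genes were also higher elsewhere: 29 of 34 in all other cells with a median of 1.11, where 2.45% of all genes were higher, and 25 of 33 in the T-positive cells with 1.25 (5.91% of all genes). In the neural cells 25 of 28 were higher with a median of 1.60 (5.66%), in the Hox-low cells 24 of 34 with 0.75 (2.88%) and in the somite cells 10 of 21 with 0.41 (2.41%). In the neural and in the somite cells 1 gene was lower. Pluripotent cells had a smaller median, 0.28, where the median of all genes was 0.03. There 4 of 34 were higher, but the share of all genes higher was not counted for these cells. The differences among these groups were not tested, and the groups share their libraries.

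**Figure D3:**
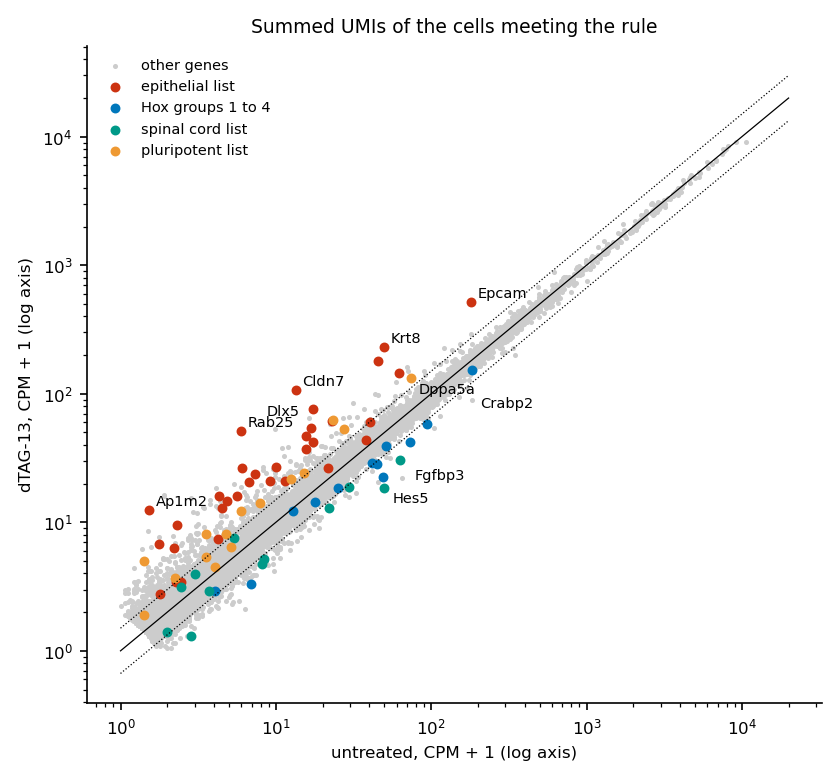
Level of each measured gene (CPM + 1, log axes) in the untreated and dTAG-13 cells meeting the rule, with the line of equality and dotted lines at 1.5-fold. Epithelial genes such as Cldn7 (12.4 and 106 CPM) lie above the upper line, and Hes5 (48.8 and 17.5 CPM) lies below the lower one.

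Promoters of some of these genes are shown because ZEB proteins bind the E-box CAGGTG, which reads CACCTG on the other strand. They were taken from promoters that hold a match, so they do not show how common a match is. They are RefSeq promoters on GRCm38.p6, from 250 bases before to 50 bases after the start, 5′ to 3′ on the gene's strand. Capitals mark each match on either strand, and Cldn7 (chr11:69965171-69965470, plus strand) and Epcam (chr17:87635729-87636028, plus) hold 2 each, Rab25 (chr3:88548230-88548529, minus) 2, Ap1m2 (chr9:21312284-21312583, minus) 4 and Crb3 (chr17:57061951-57062250, plus) 4.
Cldn7: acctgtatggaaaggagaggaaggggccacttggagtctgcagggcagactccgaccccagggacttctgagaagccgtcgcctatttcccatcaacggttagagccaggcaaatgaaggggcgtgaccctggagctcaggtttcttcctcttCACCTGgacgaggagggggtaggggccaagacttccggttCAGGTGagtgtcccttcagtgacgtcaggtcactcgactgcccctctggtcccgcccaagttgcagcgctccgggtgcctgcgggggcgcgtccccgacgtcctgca
Rab25: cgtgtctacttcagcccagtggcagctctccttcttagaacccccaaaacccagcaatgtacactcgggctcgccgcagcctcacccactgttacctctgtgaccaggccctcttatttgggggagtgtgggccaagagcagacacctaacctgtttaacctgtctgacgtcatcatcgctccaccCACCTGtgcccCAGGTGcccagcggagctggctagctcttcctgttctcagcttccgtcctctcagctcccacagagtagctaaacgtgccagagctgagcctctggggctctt
Ap1m2: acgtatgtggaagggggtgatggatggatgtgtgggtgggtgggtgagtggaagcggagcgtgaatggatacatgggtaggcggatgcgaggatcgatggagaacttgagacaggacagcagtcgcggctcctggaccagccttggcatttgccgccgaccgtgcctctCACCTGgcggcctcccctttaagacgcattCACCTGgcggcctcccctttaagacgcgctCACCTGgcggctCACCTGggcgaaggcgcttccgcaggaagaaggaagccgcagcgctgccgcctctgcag
Crb3: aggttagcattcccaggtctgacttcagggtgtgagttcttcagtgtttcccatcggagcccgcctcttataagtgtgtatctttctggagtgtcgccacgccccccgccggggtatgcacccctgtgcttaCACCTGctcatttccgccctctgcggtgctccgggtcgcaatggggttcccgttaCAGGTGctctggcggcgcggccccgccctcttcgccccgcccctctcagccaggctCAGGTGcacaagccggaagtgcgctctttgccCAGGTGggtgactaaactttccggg
Epcam: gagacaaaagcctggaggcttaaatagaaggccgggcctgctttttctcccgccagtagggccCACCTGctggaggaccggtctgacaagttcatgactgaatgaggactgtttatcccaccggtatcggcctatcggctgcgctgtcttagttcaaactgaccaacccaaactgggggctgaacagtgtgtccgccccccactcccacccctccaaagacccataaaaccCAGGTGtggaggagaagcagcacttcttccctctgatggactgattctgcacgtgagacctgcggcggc

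In the window shown, the E-box was found in 34.5% of 580 promoters of genes called higher with dTAG-13 in Sox2+T-Hox+ cells. It was found in 9.88% of 172 promoters of genes called lower. All 13627 promoters of measured genes gave 18.3%, and all 32851 RefSeq promoters gave 20.2%. Of 28 promoters of the epithelial list, found for 23 of its 34 genes, 21 held it. In the cells with none of the 6 ectoderm genes the shares were 31.9% for higher and 20.6% for lower genes. A second motif searched the same way was TGGGAA of the Notch effector RBPJ, which reads TTCCCA on the other strand. Neither motif holds the other, and it stood at 24.7% and 27.3%, against 22.9% of measured promoters. Promoters were found for 436 of the 625 higher and 133 of the 193 lower genes. A match of letters is not evidence of binding, and some genes have more than 1 promoter in the table.

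On the list of surface ectoderm genes, 9 of 12 measured were higher, against 4.48% of all genes. The median was 1.52 and the summed level 86.1 and 303 CPM. The list shares Grhl2, Grhl3 and Krt7 with the epithelial list. Dlx5, a homeobox gene of the border of the neural plate, was at 8.90 and 52.6 CPM (ratio 2.44), Sfn, an epithelial 14-3-3 protein, at 15.3 and 63.7 CPM, and Upk1a, a uroplakin, at 9.93 and 36.9 CPM. These 3 are among the 6 genes that were picked after their values were seen, and all 6 are on this list. In the cells with none of the 6, 5 of the 6 list genes still measured were higher, with a median of 1.08. The later epidermal genes were barely seen: Krt14 was at 0 UMIs in both libraries, and Krt5 and Trp63 were under 0.4 CPM in both. Tfap2c was at 22.5 and 61.2 CPM, and is also a germ cell gene. Wnt4 was at 7.24 and 25.9 CPM.

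Because these cells differ in number between the libraries, the comparison was repeated in the cells with no UMI of the 6 ectoderm genes, which were 824 untreated and 211 dTAG-13 cells. There, 339 of 12635 genes were higher (2.68%) and 341 were lower (2.7%). Of the epithelial list, 21 of 31 were higher and none lower, and the median was 0.98 in place of 1.52. Cldn7 was at 6.40 and 44.5 CPM (2.62), Krt8 at 23.3 and 74.1 CPM (1.63) and Epcam at 124 and 288 CPM (1.21). Within the cells with 2 or more ectoderm genes the median was 0.58, and with exactly 1 it was 0.64. Splitting instead by the number of neural genes gave medians of 1.43, 1.43 and 1.73 for 0, 1 and 2 genes. Choosing cells by genes that themselves differ between the libraries can move these values, and its part in them was not tested.

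**Figure D4:**
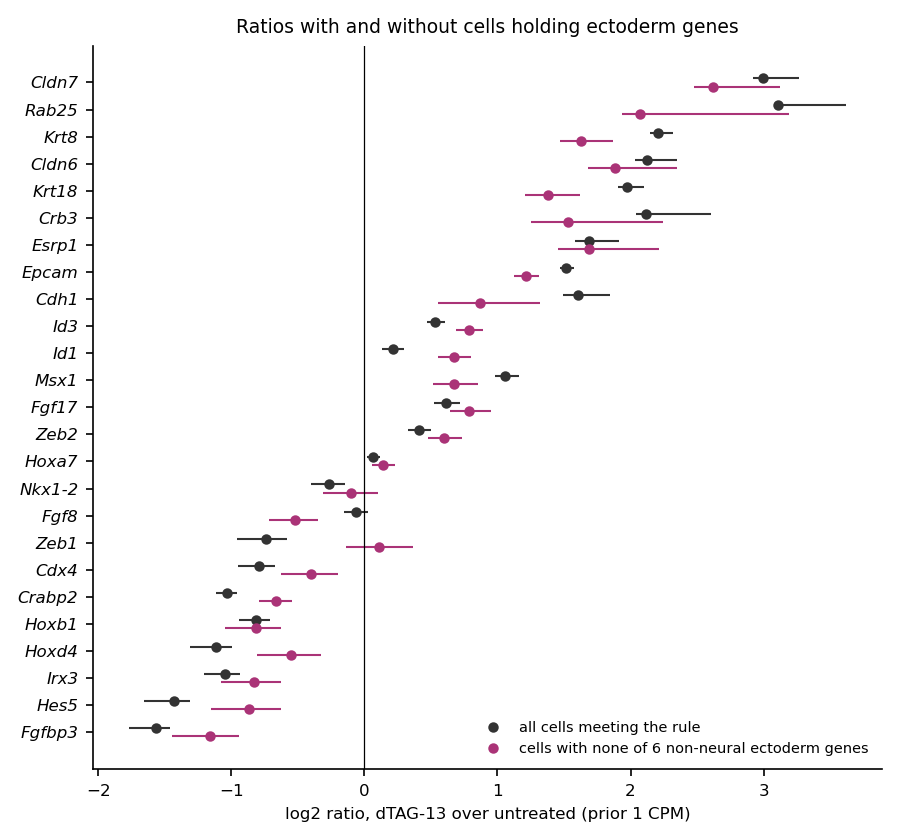
Log2 ratio of dTAG-13 over untreated for 25 genes, in all cells meeting the rule (black) and in those with none of 6 non-neural ectoderm genes (purple), with 95% conditional intervals as lines. Cldn7 stays at 2.62 and Hes5 at -0.86 in the second set, while Zeb1 moves from -0.74 to 0.11.

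Neural genes differed by list. Of 12 measured genes of spinal cord progenitors outside the rule, 7 were lower with dTAG-13 and none higher, against 1.38% of all genes lower, with a median of -0.68. Hes5 had the largest difference, at 48.8 and 17.5 CPM (ratio -1.43, -1.66 to -1.31). Irx3 was at 62.1 and 29.6 CPM (-1.04) and its neighbour Irx5 at 20.8 and 11.98 CPM (-0.75). Lix1 was at 28.6 and 17.7 CPM and Zic1 at 1.86 and 0.301 CPM. Pax7, of the dorsal neural tube, was at 4.39 and 6.52 CPM (0.48). In the cells without the 6 ectoderm genes 5 of the 12 were lower and 1 higher, and the median was -0.30. Of all genes there, 2.7% were lower and 2.68% higher. Hes5 and Irx3 were at -0.86 and -0.83 there, and Irx5 and Lix1 were no longer called, at -0.21 and -0.20. Of 13 early neural plate genes 2 were lower (median -0.41, and -0.10 without ectoderm genes), and of 10 neurogenesis genes none was called. Of 8 neural crest and dorsal neural tube genes 2 were higher and 1 lower, against 4.48% and 1.38% of all genes.

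Hes5 stood lower in the other groups too, from 45.9 to 12.3 CPM in all other cells and from 65.3 to 17.5 CPM in T-positive cells, but from 95.5 to 72.7 CPM in the 241 and 96 neural cells. Irx3 in these groups had ratios of -0.39, -0.62 and -0.23. The lower level of Hes5 was not shared by the Notch pathway as listed, where 2 of 20 measured genes were lower, against 1.38% of all genes. The 2 were Hes5 and Hes3 (18.4 and 10.0 CPM, and -0.50 without ectoderm genes), none was higher and the median was -0.04. Hes1, another Notch target, was at 62.9 and 61.0 CPM, and the ligand Dll1 at 14.9 and 12.7 CPM.

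Single genes outside that list were lower too, some of them less so without ectoderm genes. Fgfbp3, a carrier protein of FGF ligands, had the lowest ratio among genes with at least 20 CPM in 1 library, from 64.2 to 21.0 CPM (-1.57, -1.77 to -1.46). Crabp2, a retinoic acid binding protein, was at 181 and 88.3 CPM (-1.03), and Gas1, a surface co-receptor of hedgehog, at 31.9 and 15.9 CPM (-0.96). Sox3 was at 32.7 and 21.5 CPM (-0.58), at the edge of the 1.5-fold line, and Sox2, which chose the cells, at 227 and 175 CPM. Sox11 was at 216 and 208 CPM (-0.05). Without ectoderm genes Fgfbp3 was at -1.16 and Crabp2 at -0.66, while Gas1 was at 33.1 and 24.2 CPM (-0.44, not called) and Sox3 at 35.4 and 32.7 CPM (-0.11). Hist1h2ap and Hist1h2ae were among the lowest as well, at 44.3 and 19.5 CPM and at 103 and 53.5 CPM, but histone genes have near-identical copies and their counts are uncertain.

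The Hox genes did not all differ alike, but the rule chose the cells by 5 genes of groups 5 to 9. That choice limits how far these groups can differ here, and its part was not tested. Of the 12 genes of groups 1 to 4, 5 were lower and none higher, where 1.38% of all genes were lower. Their median was -0.51 and their summed level 593 and 413 CPM. Hoxd4 was at 48.0 and 21.7 CPM (ratio -1.11), Hoxb1 at 72.5 and 40.9 CPM (-0.81) and Hoxb2 at 93.3 and 57.5 CPM (-0.69). Of the 10 genes of groups 5 to 9 outside the rule, 1 was lower, Hoxd9 at 9.66 and 5.36 CPM (0.041 without ectoderm genes), and the median was -0.11. Hoxa7 was at 269 and 282 CPM (0.07), Hoxb7 at 65.1 and 71.0 CPM (0.12) and Hoxb8 at 313 and 298 CPM (-0.07). In T-positive cells, not chosen by Hox genes, the medians of groups 1 to 4 and 5 to 9 were -0.85 and -0.55. They were -0.90 and -0.74 in neural cells and -0.84 and -0.545 in all other cells. Hox-low cells had -0.19 and -0.17, somite cells -0.11 and -0.16, and pluripotent cells -0.14 and 0.07.

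Of groups 10 to 13, Hoxa10 was at 4.32 and 1.40 CPM and Hoxc10 at 9.62 and 5.41 CPM (0.11 without ectoderm genes), and the other genes were at low counts. In the cells without ectoderm genes, the median of groups 5 to 9 was 0.03. Of the 12 genes of groups 1 to 4, 2 were lower there (median -0.32), against 2.7% of all genes. The 2 were Hoxb1 at -0.82 and the low Hoxd3 at -0.96, while Hoxd4, Hoxb2 and Hoxc4, at -0.55, -0.41 and -0.32, were no longer called. Among the genes of the rule, Hoxa9 was at 90.8 and 58.0 CPM in all cells and at 97.0 and 92.6 CPM in the cells without ectoderm genes. The rule asked for 3 or more of its 5 Hox genes, so Hoxa9 itself was not required in each cell. It was at 17.2 and 8.57 CPM in cells with 3 of them detected and at 132 and 104.5 CPM with all 5. Hoxb5os, a transcript from the opposite strand of the Hoxb cluster, was at 347 and 198 CPM (-0.81). The sources used here do not say if reads were counted by strand, and without it overlapping Hox transcripts cannot be told apart.

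**Figure D5:**
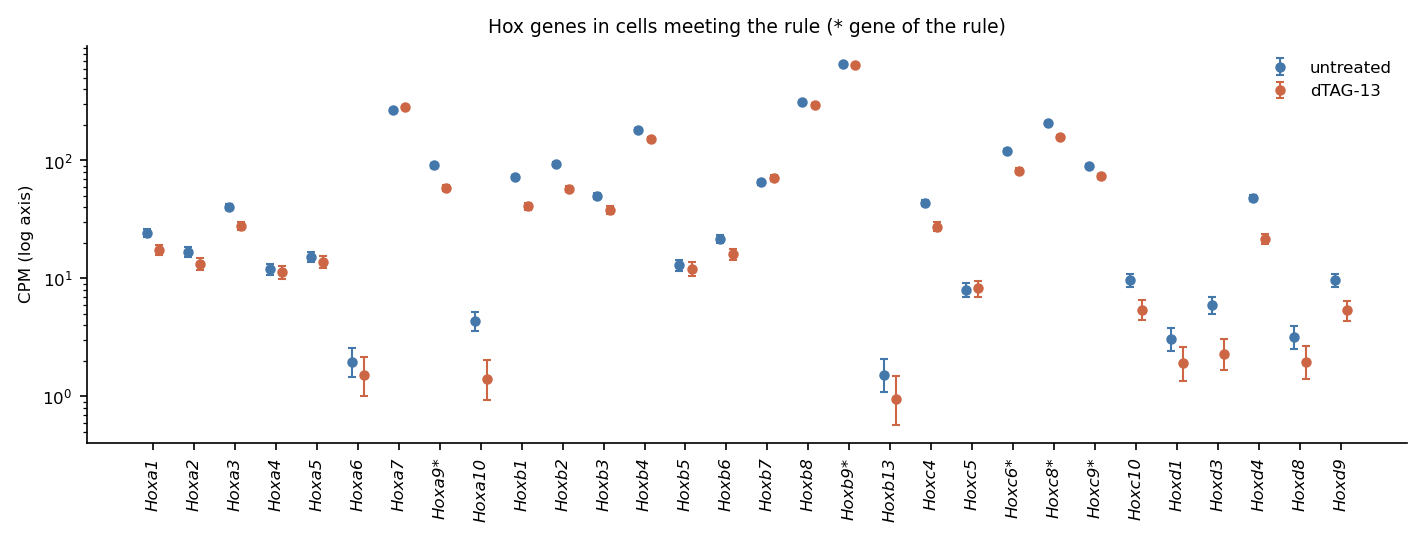
Level of each Hox gene with at least 20 UMIs in the cells meeting the rule (CPM, log axis) in the untreated (blue) and dTAG-13 (orange) libraries, with 95% Poisson intervals as bars. Of the 12 group 1 to 4 genes 5 were called lower with dTAG-13 (1.38% of all genes), such as Hoxd4 (48.0 and 21.7 CPM). Hoxa7 (269 and 282 CPM) and Hoxb7 (65.1 and 71.0 CPM) were not called, in cells chosen by other posterior Hox genes.

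Genes of the tail progenitors differed one by one rather than together. Of 14 measured, 2 were higher, Fgf17 and the low Cyp26a1 (-0.17 without ectoderm genes), and 1 was lower, with a median of -0.10. Of all genes, 4.48% were higher and 1.38% lower. Fgf17 was at 63.0 and 96.9 CPM (ratio 0.61), while Fgf8 was at 91.2 and 87.4 CPM (-0.06). Cdx4, a caudal factor upstream of Hox genes, was at 53.6 and 30.5 CPM (-0.79), its relative Cdx1 at 23.5 and 35.1 CPM (0.56) and Cdx2 at 206 and 164 CPM (-0.33). In the cells without ectoderm genes Fgf17 stood at 57.3 and 99.7 CPM, Fgf8 at 79.4 and 55.0 CPM, and Cdx4 at 57.6 and 43.3 CPM.

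Of the BMP list, 4 of 19 measured genes were higher, against 4.48% of all genes, and none lower, with a median of 0.23. Beside Msx1 they were Dlx5, 1 of the 6 genes picked after their values were seen, and the low Bmp2 and Bmp4, which were not called without ectoderm genes (0.47 and 0.10). Msx1, a homeobox target of BMP, was at 58.1 and 122 CPM (ratio 1.06, and 0.68 without ectoderm genes). Id3, an inhibitor of differentiation factors and a direct target, was at 124 and 179 CPM (0.53), and Id1 at 93.3 and 108 CPM (0.21). In the cells without ectoderm genes Id1 was at 93.8 and 150 CPM (0.67) and Id3 at 123 and 213 CPM (0.79), both called higher. There 4 of 12 measured genes of the list were higher and none lower, against 2.68% of all genes higher, with a median of 0.33. The ligands Bmp2 and Bmp4 were under 4 CPM in both libraries, and Bmp4 was at -0.026 with no Hox condition. Ptch1, a hedgehog receptor and target, was at 54.1 and 78.8 CPM (0.53), and 1 of 11 hedgehog genes, Gas1, was called, as lower. Without ectoderm genes 2 of 10 hedgehog genes were higher and none lower, where 2.68% of all genes were higher. The 2 were Ptch1 at 0.80 and the low Gli1 at 0.78, and Gas1 was not called, at -0.44.

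Retinoic acid genes went both ways, with 2 of 14 higher and 3 lower, and 0 and 2 without ectoderm genes. Of all genes, 4.48% were higher and 1.38% lower, and 2.68% and 2.7% without ectoderm genes. Crabp1 was at 150 and 92.7 CPM (-0.69), and at -0.36 without ectoderm genes. Of 22 WNT genes 4 were higher, against 4.48% of all genes, among them Wnt4, the surface ubiquitin ligase Rnf43 (5.30 and 11.9 CPM) and the repressor Tcf7l1 (19.6 and 32.2 CPM), and none was lower. Without ectoderm genes 1 of the 22 was higher, Rnf43 at 1.00, and 1 lower, and Wnt4 and Tcf7l1 were at 0.43 and 0.11. Of 21 FGF genes 3 were higher and 2 lower, and 4 and 1 without ectoderm genes.

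Genes of earlier and other lineages were higher too, many but not all of them at low levels. Of 15 pluripotent and germ cell genes 11 were higher, against 4.48% of all genes, and none lower, with a median of 0.80 and a sum of 178 and 351 CPM. Without ectoderm genes 5 of 14 were higher, against 2.68% of all genes, with a median of 0.42. Pou5f1 was at 26.6 and 52.6 CPM and Dppa5a at 72.9 and 132 CPM. Pluripotent cells of the same libraries held 6887 and 5760 CPM of these genes in sum. After barcodes with the highest doublet scores were left out, which kept 1025 untreated and 639 dTAG-13 Sox2+T-Hox+ cells, the median was 0.23, and Dppa5a and Zfp42 were at -0.29 and -0.36. Of 11 epiblast genes 6 were higher (median 1.20), among them Dnmt3b at 68.9 and 160 CPM and Otx2 at 2.42 and 11.8 CPM. The epiblast median was -0.10, however, when cells were thinned before the rule. Of 9 endoderm genes 8 were higher, which include Epcam and Cldn6. Without ectoderm genes 6 of 10 epiblast genes (median 0.92) and 6 of 9 endoderm genes (median 1.21) were higher. In each list 1 gene was lower there, where 2.68% of all genes were higher and 2.7% lower.

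Lists of mesoderm and midline lineages gave the following values. Of 5 notochord and floor plate genes 3 were higher, with a sum of 60.0 and 253 CPM of which Krt8 held 49.1 and 231 CPM, and Noto was at 0 UMIs in both libraries. Of 6 lateral plate, cardiac and endothelial genes 4 were higher (median 0.97, sum 16.02 and 27.8 CPM). Of all genes, 4.48% were higher and 1.38% lower. Without ectoderm genes 2 of 4 notochord and floor plate genes were higher (median 0.84). Of the lateral plate, cardiac and endothelial list it was 3 of 6 (median 0.46), against 2.68% of all genes. Foxa2, of endoderm and floor plate, was at 1.86 and 6.57 CPM, Cer1, of anterior endoderm, at 0.758 and 5.61 CPM, and Gata6, of endoderm and heart, at 1.97 and 5.01 CPM, and all 3 were called higher. Somite genes were lower in 2 of 7, with Meox1 at 22.8 and 13.3 CPM (0.049 after thinning), against 394 and 376 CPM in somite cells. Lists of sample quality showed no called gene: none of 19 S phase, 20 G2 and M phase, 13 mitochondrial, 13 p53 and 13 dissociation genes was higher or lower, with medians from -0.06 to 0.29. Of 20 glycolysis and hypoxia genes 2 were higher. Without ectoderm genes 1 dissociation gene was higher and 1 lower, and 1 p53 gene was lower.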

How the data were processed

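Per the submitters' processing notes, the authors made the deposited counts with Cell Ranger 6.1.2 on mm10. The files hold whole-number UMI counts for 32285 genes, without normalization. Barcodes with at least 1000 genes and at most 10% mitochondrial UMIs were kept, which removed 630 of 7276 untreated and 693 of 7873 dTAG-13 barcodes. Scrublet (in scanpy 1.11.5) marked 1 and 0 barcodes, too few to be credible, so doublets were kept and removal by score rank, at 0.8% per 1000 barcodes, was an alternative. UMIs were summed per library and group of cells and scaled to CPM. Ratios carry a prior of 1 CPM, and their intervals are exact conditional intervals of the counts without it, so at low CPM an interval can lie farther from 0 than the ratio. Genes needed at least 20 summed UMIs, and the 13 genes of the rule were left out of counts and lists. Thinning drew 10000 UMIs per cell with a fixed seed, which left out 16 untreated and 7 dTAG-13 Sox2+T-Hox+ cells.

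T-positive cells had at least 2 UMIs of Sox2 and T. Neural cells had at least 2 UMIs of Sox2, none of T and 3 or more neural genes, whatever their Hox genes. Somite cells had at least 2 UMIs of Meox1 and Tcf15 and none of Sox2, and pluripotent cells at least 2 UMIs of Pou5f1 and Dppa5a, 1 or more of Zfp42 and none of T.

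Named genes are the 12 highest and 12 lowest ratios with at least 20 CPM in 1 library and 50 UMIs in all (1 predicted gene was passed over), the 15 highest and 8 lowest against all other cells, the 6 highest and lowest against T-positive and neural cells, the markers, and genes of 35 lists. The text gives those that describe a role. The members and lists were chosen with earlier results of these data known, and the 6 non-neural ectoderm genes after their values were seen. Positions and promoters came from GENCODE M21 and RefSeq on GRCm38. The calculation was checked on simulated counts. Alternatives covered filters, doublets, the rule, scaling (edgeR 4.0.16 TMM and DESeq2 1.42.0 size factors, used for scaling only), the prior and the count minimum.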

Additional observations from a re-analysis of the deposited data

Results flagged for a closer look

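Several genes had ratios past 1.5-fold in opposite directions in the Sox2+T-Hox+ cells and in another group. With 1 library per group none of these differences was tested. Fgf3, an FGF ligand, had a ratio of 0.67 (2.35 and 4.31 CPM) in Sox2+T-Hox+ cells, against -0.77 (16.2 and 9.08 CPM) in all other cells and -0.60 in T-positive cells. Wnt4 had 1.71, against -0.73 in neural cells (29.2 and 17.3 CPM), and 0.43 in Sox2+T-Hox+ cells without the 6 ectoderm genes.

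The rest were against the Hox-low cells, where pluripotency genes were abundant. Dppa5a had 0.85 (72.9 and 132 CPM) against -0.84 (2791 and 1563 CPM). Dppa3 had 1.21 against -0.61, Klf2 0.80 against -0.64, Tdgf1 1.06 against -0.64, Dnmt3l 0.77 against -0.79 and Tdh 0.71 against -0.75. Bmp4, at 0.758 and 2.56 CPM, had 1.02 against -0.82. Sox21, a neural SoxB gene, had -0.69 (7.43 and 4.21 CPM) against 0.76 (5.57 and 10.1 CPM). With high doublet scores left out, Dppa5a was at -0.29 and Tdgf1 at -0.25 in Sox2+T-Hox+ cells.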

How the results depend on the processing

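The difference in share, dTAG-13 minus untreated, was -6.35 percentage points. It was 5.79 with no Hox condition, -8.40 after thinning before the rule, -4.99 with 2 Hox genes, -4.57 with at most 1 neural gene, -5.11 with 4 Sox2 UMIs and -9.46 in cells without the 6 ectoderm genes (added after seeing the data). The 625 genes higher became 210 with a prior of 5 CPM, 410 with 100 UMIs per gene, 380 with no Hox condition and 339 without ectoderm genes. The 193 lower became 37 with the prior of 5 CPM, 454 after thinning and 341 without ectoderm genes. Of the genes called in all cells, 186 higher and 87 lower were called again without ectoderm genes. The 11 genes 2-fold above all other cells became 7 with 4 Sox2 UMIs, with 2 Hox genes and with at most 1 neural gene, 3 at 5% mitochondrial UMIs and with the prior of 5 CPM, and 234 with no Hox condition. The 211 below became 131 at 5% mitochondrial UMIs, 317 without high doublet scores, 115 with no Hox condition and 68 with the prior of 5 CPM.

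Settings are named in short from here. The epithelial median of 1.52 was 1.47 with at most 1 neural gene, 0.98 without ectoderm genes, 1.07 with no Hox condition and 1.12 with the prior. The surface ectoderm median of 1.52 was 1.42 with 4 Sox2 UMIs, 1.41 with 1 UMI per gene, 1.41 at 5% mitochondrial UMIs, 1.08 without ectoderm genes, 0.97 with no Hox condition and 1.11 with the prior. The spinal cord median of -0.68 was -0.30 without ectoderm genes and -0.40 with the prior. The Hox 1 to 4 median of -0.51 was -0.30 after thinning, -0.32 without ectoderm genes and -0.90 with no Hox condition. The pluripotent median of 0.80 was 0.58 with 2 Hox genes, 0.61 with at most 1 neural gene, 0.39 after thinning, 0.23 without doublets, 0.52 for the mean of cells, 0.42 without ectoderm genes, 0.21 with no Hox condition and 0.61 with the prior. The epiblast median was -0.10 after thinning.

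Single genes changed sign. After thinning, Cyp26a1 was at -1.01, Fgf4 at -0.23, Lhx1 at -1.15, Meox1 at 0.049 and Myl7 at -0.30. Without doublets, Dkk1 was at -0.37, Dppa5a at -0.29, Gsc at -0.31, Myl7 at -0.21, Tdgf1 at -0.25 and Zfp42 at -0.36. Without ectoderm genes, Cyp26a1 was at -0.17, Dkk1 at -0.70, Dppa5a at -0.19, Hoxc10 at 0.11, Hoxd9 at 0.041, Spink1 at -1.77, Zeb1 at 0.11 and Zfp42 at -0.21. With no Hox condition, Bmp4 was at -0.026, Dnmt3l at -0.068, Dppa5a at -0.11, Sox21 at 0.27 and Tdh at -0.03. Of 93 gene ratios past 1.5-fold, 1525 of 1549 alternative values had the same sign and 1345 were still past 1.5-fold. The causes were not tested. No paired analysis was possible because each group has 1 library, so no library could be left out either. Genes at a few CPM are limited by depth.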
